A study of Homo sapiens with 2 samples.

Results

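ATF1 binding was examined at the genes of 8 proteins that switch CREB-family transcription on and off: the coactivators CRTC1, CRTC2 and CRTC3, the acetyltransferases CREBBP and EP300, and the salt-inducible kinases SIK1, SIK2 and SIK3. The members were fixed by name, and their rows were taken from a table of 15064 ATF1 peaks, in which each peak carries 1 gene name and each name occurs once. The table named 7 of the 8 genes, against 57.9% of 19974 protein-coding genes, and SIK1 was the gene it did not name.

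The ChIP group was HCT116, a human colon adenocarcinoma line, whose chromatin was fixed with 1% formaldehyde, sheared to 200 to 400 bp and precipitated with 5 µg of an antibody described as against 3xFlag-tagged ATF1. The input group was HCT116 DNA with no antibody, from which no table was used here. Each group is 1 library without a replicate, so no p-value is given and every value describes that library. The cells grew in 10% serum, the labels name no agent that raises cAMP, and they do not say how the tagged ATF1 was introduced or at what level. The protocol also names a nonspecific rabbit IgG, which was not analysed here. A peak table does not measure expression, so the cell type was not checked against markers.

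CREB, ATF1 and CREM bind the cAMP response element (CRE) as dimers. Protein kinase A (PKA) phosphorylates them in response to cAMP, and the phosphorylated factor recruits CREBBP (also called CBP) or EP300 (p300), which acetylate histones. CRTC proteins bind the leucine zipper region instead. SIKs, kinases activated by LKB1, phosphorylate CRTCs, which are then held in the cytoplasm by 14-3-3 proteins, until PKA inhibits the SIKs and the phosphatase calcineurin frees the CRTCs.

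SIK2 and SIK3 had the strongest of the members' peaks, CRTC2, CRTC3 and EP300 had peaks at a gene end with 7.84-fold enrichment or less, and the peaks named for CRTC1 and CREBBP lay deep inside introns with 33 tags each. Fold enrichment and score are the authors' own values for each peak, and tags are the authors' count of reads in it. By fold enrichment the order was SIK3 (14.95), SIK2 (12.99), CRTC1 (8.22), CRTC2 (7.84), EP300 (5.24), CREBBP (5.15) and CRTC3 (3.65). The median was 7.84 over the 7 members and 6.97 over all peaks, and 4 of the 7 lay above the table's median. The fold values carry no error, so neighbours such as EP300 and CREBBP cannot be told apart by them.

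The promoters of the SIK genes, of CREBBP and of EP300 are shown because they carry the contrast described here: strong peaks at SIK2 and SIK3, none named at SIK1 or at the CREBBP starts, and a broad peak at EP300. Each line gives the 250 bases before the RefSeq start, 5′ to 3′ in the direction of the gene, from RefSeq on GRCh38.p14. Capitals mark the 5-letter CRE core TGACG or its reverse complement CGTCA, extended where the letters continue to TGACGTC or GACGTCA, which is all but 1 letter of the palindromic CRE, TGACGTCA.
SIK1, chr21:43427132-43427381, minus strand: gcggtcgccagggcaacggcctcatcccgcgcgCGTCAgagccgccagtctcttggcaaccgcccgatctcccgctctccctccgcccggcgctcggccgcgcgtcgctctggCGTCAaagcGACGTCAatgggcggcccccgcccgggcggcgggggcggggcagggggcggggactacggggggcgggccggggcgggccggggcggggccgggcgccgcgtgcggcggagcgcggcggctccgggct
SIK2, chr11:111602199-111602448, plus strand: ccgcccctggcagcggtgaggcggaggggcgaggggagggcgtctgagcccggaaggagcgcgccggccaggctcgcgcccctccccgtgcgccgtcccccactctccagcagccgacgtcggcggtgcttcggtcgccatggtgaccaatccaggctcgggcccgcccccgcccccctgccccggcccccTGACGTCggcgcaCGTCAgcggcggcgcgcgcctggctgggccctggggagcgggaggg
SIK3, chr11:117098429-117098678, minus strand: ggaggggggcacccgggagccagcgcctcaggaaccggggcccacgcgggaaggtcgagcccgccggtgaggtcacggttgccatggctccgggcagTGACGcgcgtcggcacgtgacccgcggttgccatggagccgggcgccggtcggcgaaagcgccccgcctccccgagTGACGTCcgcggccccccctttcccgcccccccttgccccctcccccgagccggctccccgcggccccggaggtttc
CREBBP, the outer of its starts, chr16:3880714-3880963, minus strand: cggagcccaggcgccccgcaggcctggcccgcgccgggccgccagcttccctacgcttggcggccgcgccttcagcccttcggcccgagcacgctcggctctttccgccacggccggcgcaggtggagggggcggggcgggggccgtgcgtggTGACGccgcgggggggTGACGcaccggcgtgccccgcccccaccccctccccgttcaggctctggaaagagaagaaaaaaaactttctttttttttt
EP300, chr22:41092342-41092591, plus strand: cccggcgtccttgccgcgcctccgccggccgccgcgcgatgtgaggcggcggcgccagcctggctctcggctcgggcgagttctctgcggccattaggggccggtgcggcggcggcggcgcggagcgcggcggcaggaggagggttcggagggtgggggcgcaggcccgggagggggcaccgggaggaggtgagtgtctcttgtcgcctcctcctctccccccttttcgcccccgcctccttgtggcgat

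SIK2, a kinase that phosphorylates CRTC2, had an exonic peak by the authors' class on chromosome 11, from 111601728 to 111603628 (hg38). It held 659 tags, with an exact 95% Poisson interval of 610 to 711 that covers counting error only, and its score was 1628.89. Of all peaks, 96.5% had fewer tags, 86.6% a lower fold enrichment and 96.6% a lower score. The peak was 1901 bp long, longer than 68.2% of peaks, and its 347 tags per kb exceeded those of 99.2%. Its summit lay 44 bp upstream of the RefSeq start, inside the printed window, and 14 bp inside the gene as the authors annotate it.

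SIK3, the largest of the 3 kinase genes at 255 kb, had an upstream peak on chromosome 11 from 117097478 to 117099391. It held 482 tags (interval 440 to 527) at 14.95-fold, with a score of 1170.46. Fewer tags were found in 90.7% of peaks, and a lower fold enrichment in 90.1%. The summit lay 136 bp upstream of the RefSeq start. The tag intervals of SIK2 and SIK3 do not overlap, and SIK2 had more tags while SIK3 had the higher fold enrichment.

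SIK1, whose transcription is known to be induced by cAMP in other cell types, was not named in the table, and no summit lay inside its 12649 bp on chromosome 21 (43414483 to 43427131). The nearest summits on either side were 53.6 kb from the gene, in the peak of TCONS_00029157 (3.57-fold, 139 tags), and 148 kb from it, in the peak of HSF2BP (8.42-fold, 23 tags). RefSeq lists a second copy of SIK1, LOC102724428, elsewhere on chromosome 21, and the 300 bases of its promoter were identical to those of SIK1 at 300 of 300 positions. The copy had no summit inside it either. The sources used here do not state how reads matching both copies were handled, so the missing peak at SIK1 is uncertain. Across protein-coding genes, a summit within 1 kb of a start was found for 143 of 345 genes whose promoter is identical to that of another gene (41.4%, exact 95% binomial interval 36.2 to 46.8%), against 7837 of 15528 with a promoter of their own (50.5%, interval 49.7 to 51.3%). These groups overlap, as together they hold more than the 15813 protein-coding genes with a start, so their intervals are not those of separate sets. The part of the second copy in the SIK1 result was not tested.

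**Figure D1:**
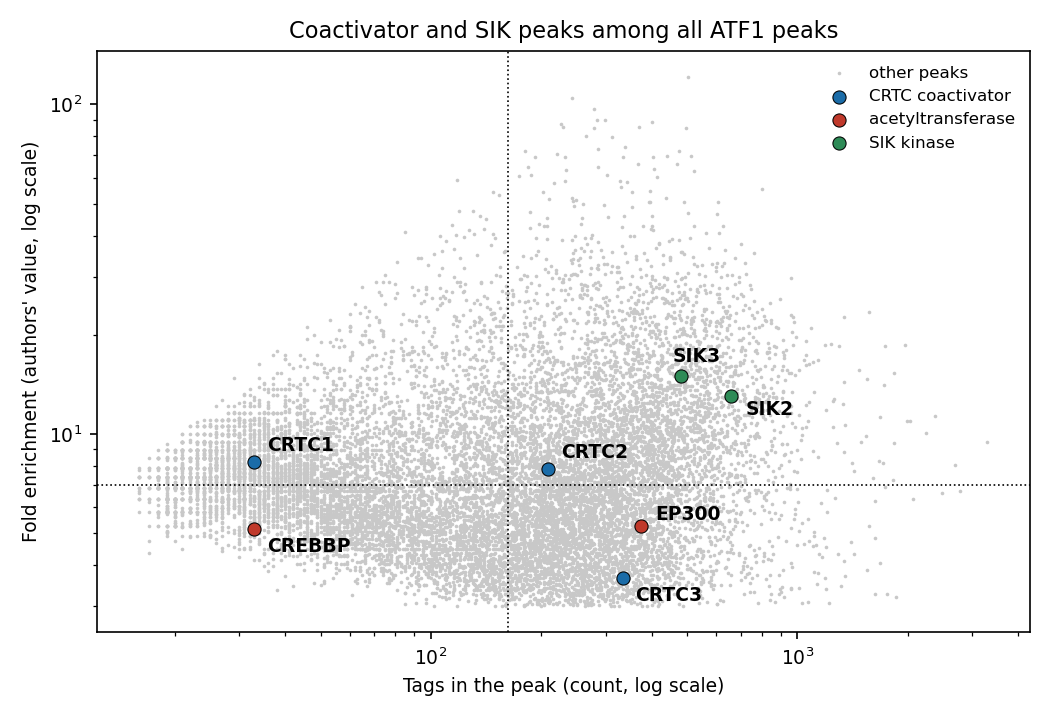
Tags per peak (x axis, log scale) against the authors' fold enrichment (y axis, log scale) for all 15064 peaks in grey and the 7 named members in colour by role; dotted lines are the medians of all peaks, 162 tags and 6.97-fold. SIK2 and SIK3 lie in the upper right, EP300 and CRTC3 at many tags but low fold enrichment, and CRTC1 and CREBBP at 33 tags.

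CRTC2, the CRTC best known in liver glucose metabolism, had an exonic peak on chromosome 1 from 153957773 to 153959145. It held 209 tags (interval 182 to 239) at 7.84-fold with a score of 268.28, above 59.0%, 60.1% and 65.0% of peaks by tags, fold enrichment and score. The summit lay 24 bp inside one end of the gene, and 522 bp from the nearest end of SLC39A1, a zinc transporter gene. SLC39A1 was named for another peak, 4.96 kb from that end of CRTC2, with 21.05-fold enrichment and 333 tags. The start of CRTC2 was not used here.

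CRTC3 had the lowest fold enrichment of the members, 3.65, above 5.16% of peaks, but 334 tags (interval 299 to 372), above 78.0% of peaks. Its exonic peak on chromosome 15, from 90528584 to 90531143, was the longest of the members at 2560 bp. The summit lay 110 bp downstream of the RefSeq start. Per kb, the peak held 130 tags, more than 66.6% of peaks did, so tags and tag density placed CRTC3 higher in the table than its fold enrichment or its score of 93.12, above 32.4% of peaks.

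CRTC1, the CRTC most studied in neurons, had an intronic peak on chromosome 19 from 18699295 to 18700246, 16049 bp downstream of the start of a 98.7 kb gene. It held 33 tags (interval 22.7 to 46.3). Its fold enrichment of 8.22 exceeded 63.8% of peaks, whereas its tags exceeded 10.9% and its score of 73.90 exceeded 21.9%. No summit lay within 1 kb of its start. A summit 728 bp beyond the other end of CRTC1 belonged to the peak named for COMP, a cartilage matrix gene, with 4.42-fold enrichment and 181 tags.

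EP300 had an upstream peak on chromosome 22 from 41090931 to 41093377, 2447 bp long, with 374 tags (interval 337 to 414), 5.24-fold enrichment and a score of 261.80. Fewer tags were found in 82.3% of peaks, but a lower fold enrichment in 25.8%. The peak covered the start, yet its summit lay 922 bp upstream of it. Among the 7964 protein-coding genes with a summit within 1 kb of a start, 99.3% had one nearer, and the median distance was 94 bp. That set ends at 1 kb, so the rank of a summit at 922 bp is partly set by the window. The only other annotated gene with an end within 1 kb of this summit was the microRNA gene MIR1281, at 843 bp.

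CREBBP, the close relative of EP300, had an intronic peak on chromosome 16 from 3762091 to 3762966, 118 kb downstream of the nearer of the 2 RefSeq starts and 37549 bp from the other end of the gene. It held 33 tags (interval 22.7 to 46.3) at 5.15-fold. Its score of 52.07 exceeded 2.55% of peaks, where the table's lowest score is 50. No summit lay within 1 kb of either start. The table therefore placed a peak at the start of EP300 and none at the starts of CREBBP. Since it holds 1 peak per gene name and lists none far from genes, it does not show whether CREBBP had others.

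With 33 tags each, the CRTC1 and CREBBP peaks lay nearer the median of peaks deep in introns than that of peaks at gene ends. The 1036 intronic peaks over 10 kb from both ends of their protein-coding gene had a median of 44 tags (lower quartile 28) and 6.88-fold enrichment, against 239 tags and 7.49-fold for the 7163 peaks within 1 kb of an end of their gene. The 1728 listed peaks with 33 tags or fewer had a median of 7.37-fold. Their median score was 62.5, where the table's lowest score is 50. Peaks with few tags and low fold enrichment may not be listed, so no relation between tags and fold enrichment is read here. By tags the members ran SIK2, SIK3, EP300, CRTC3, CRTC2, then CRTC1 and CREBBP together. Of neighbours in that order, EP300 and CRTC3 had overlapping Poisson intervals, CRTC1 and CREBBP had equal counts, and the other pairs did not overlap.

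**Figure D2:**
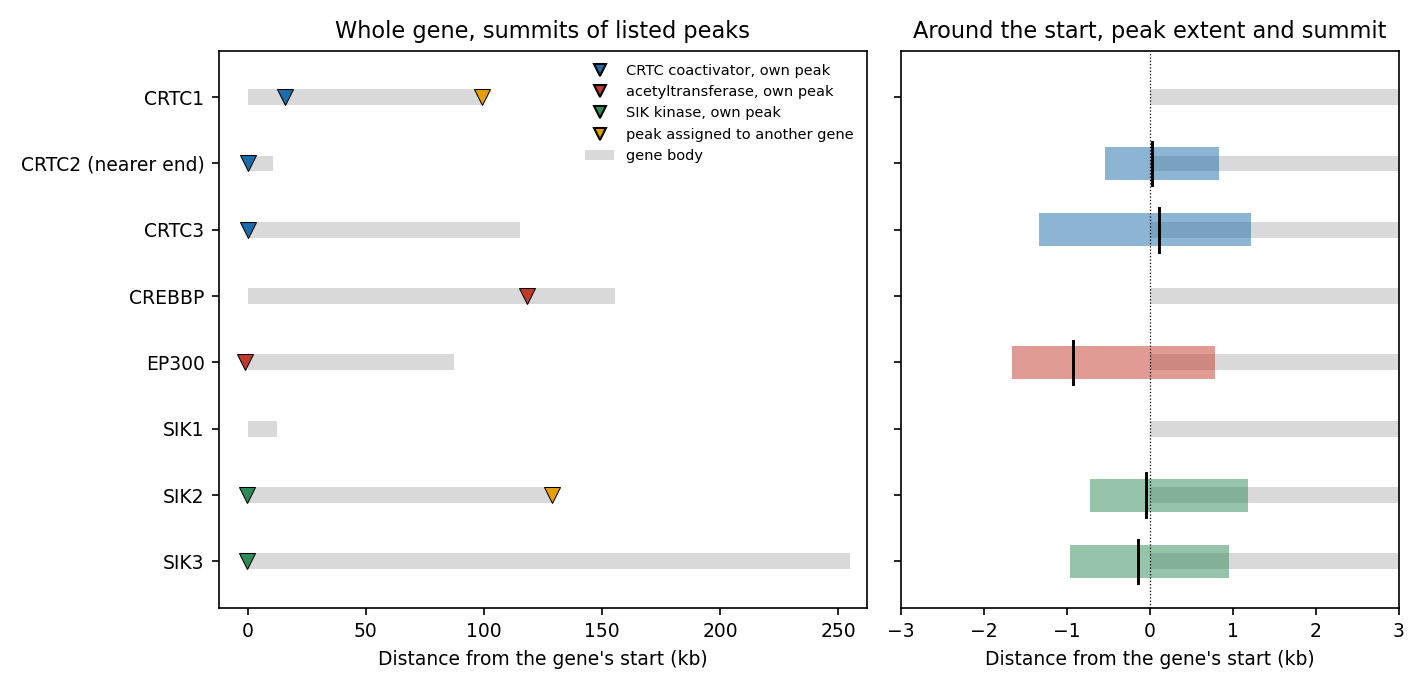
Left, the 8 genes drawn to scale as grey bars with the summits of all listed peaks in them or within 2 kb; right, the extent of each peak (coloured box) and its summit (black line) around the start, both x axes in kb from the RefSeq start in the direction of the gene. For CRTC2 the end nearer its summit stands in for the start, and for CREBBP the outer start is used. CRTC3, EP300, SIK2 and SIK3 have a peak over the start, and CRTC2 has one over the end that stands in for it. SIK1 has none, and the orange summits near the far ends of CRTC1 and SIK2 were assigned to COMP and PPP2R1B.

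A gene-end peak, meaning any summit within 1 kb of either end of the gene whichever gene it was assigned to, was present at 6 of the 8 genes (75%, interval 34.9 to 96.8%), against 48.0% of 19974 protein-coding genes. All but CREBBP and SIK1 had one. For CRTC1 it was the COMP peak alone. SIK2 had one at both ends, since the peak of PPP2R1B, a phosphatase subunit gene (6.83-fold, 29 tags), lay 370 bp beyond its far end. A summit within 1 kb of a RefSeq start was found at 4 of the 7 members with a start (57.1%, interval 18.4 to 90.1%), against 50.4% of 15813 protein-coding genes. No start was available for CRTC2, so it was counted neither with nor without a start peak. Because each gene name keeps 1 peak, these counts and the shares of all genes may miss peaks that were not listed. The start-peak share was near that of all genes, and with so few members each of these intervals includes the share of all genes.

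The summit of SIK2 was nearer its start than most, as 26.1% of the genes with a start peak had one nearer, while the share was 55.3% for CRTC3 and 62.5% for SIK3. Peaks of different annotation classes differ in size, with a median of 275 tags in upstream, 176 in exonic and 86 in intronic peaks. Within its own class, SIK2 exceeded 97.1% of exonic peaks by tags and SIK3 82.6% of upstream peaks. SIK2 is exonic by the authors' gene start, though its summit lay 44 bp upstream of the RefSeq start. The 2 percentages are against different classes and do not compare SIK2 with SIK3. By fold enrichment, CRTC1 exceeded 71.5% of intronic peaks, CREBBP 25.6% of them and EP300 21.4% of upstream peaks. SIK2 exceeded 84.3% of exonic peaks by fold enrichment, CRTC3 5.49% of them, and SIK3 84.4% of upstream peaks. The high fold enrichment of SIK2 and SIK3 and the low values of CRTC3 and EP300 were thus also seen among peaks of their own class. SIK2 and SIK3 stood lower there than among all peaks (86.6% and 90.1%).

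CRE letters were found in the promoters of 5 of the 7 members with a sequence, counting the window from 250 bases before to 50 after the start on both strands. TGACG or CGTCA occurs in 24.6% of all 35116 RefSeq promoters of that length, of which 22156 are of the protein-coding genes. The members are all protein-coding, whereas the shares given here are over all promoters. Of the 22156, 15983 held no match and 5269 held TGACG alone. A further 404 held TGACGTC without TGACGTCA, and 500 held TGACGTCA. Members were counted by gene, CREBBP by either of its 2 starts, whereas the background shares are by promoter. The complete TGACGTCA was in 0 of 7 and is in 1.85% of promoters. TGACGTC or GACGTCA, which contains a match to the 5 letters and was added after the promoters had been read, was in 3 of 7, the promoters of SIK1, SIK2 and SIK3, and is in 3.45%. CRTC1 and EP300 held no match.

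At SIK2, TGACGTC began 59 bases before the start, and CGTCA began 46 bases before it, with its middle at the summit (0 bp apart). At SIK3, a TGACG began 153 bases before the start, 15 bp from the summit measured to its middle, and TGACGTC began 77 bases before it, 62 bp from the summit. In the 2469 protein-coding promoters that held both a summit and the 5 letters, the median distance from the summit to the nearest match was 32 bp (quartiles 11 and 75), and 30.9% had one nearer than SIK3. A summit is a single position in a peak of about 2 kb, and these letters recur, so the distances describe where they fall.

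SIK1 held CGTCA 217, 137 and 126 bases before its start, and the last of these is part of GACGTCA. SIK1 thus had 3 matches to the core and no listed peak, against 2 matches at SIK2 and 2 at SIK3. The outer CREBBP promoter held TGACG 97 and 81 bases before the start, also with no summit near, and its inner promoter held none. CRTC3 held TGACG 181 bases before its start, 289 bp from its summit.

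**Figure D3:**
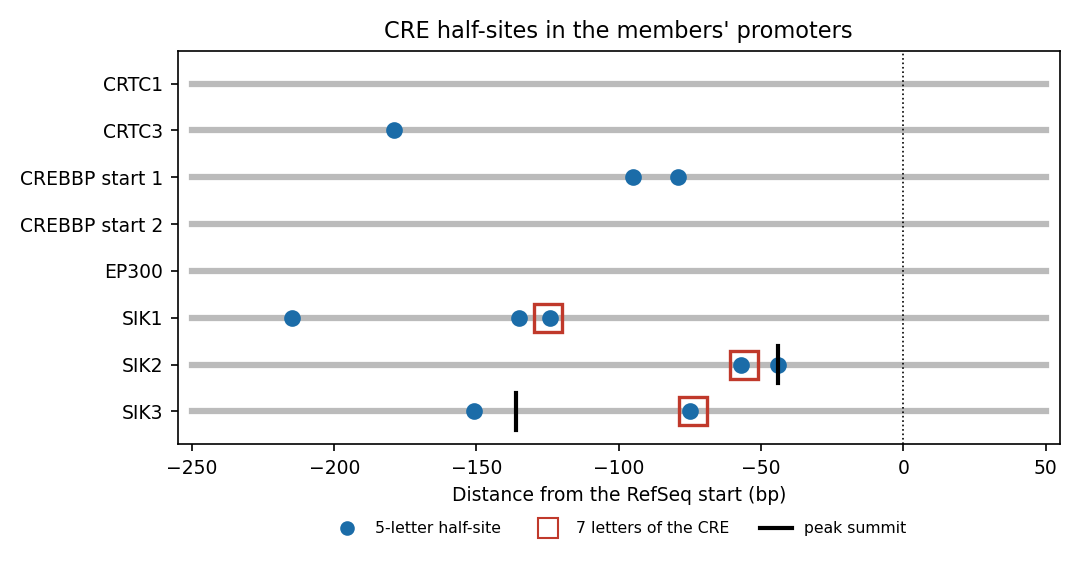
Positions of the 5 CRE core letters (blue dots) and of 7 CRE letters in a row (red squares) in the 8 promoters of the 7 members with a sequence, with the peak summit (black bar) where it falls in the window; the x axis is distance from the RefSeq start in bp. The summits of SIK2 and SIK3 lie 0 and 15 bp from a match, and SIK1 has 3 matches and no summit.

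Over all protein-coding promoters, a summit within 1 kb of the start was found at 67.4% of the 500 with TGACGTCA (interval 63.1 to 71.5%), 64.6% of the 404 with TGACGTC but not TGACGTCA (59.7 to 69.3%), 57.4% of the 5269 with TGACG alone (56.1 to 58.8%) and 38.7% of the 15983 with none (37.9 to 39.4%). The median of the highest fold enrichment at those starts was 17.02, 12.14, 9.66 and 6.94 in the same order. The 22156 promoters belong to 15813 genes, and starts close together can share a peak. The intervals treat each promoter as independent and may therefore be too narrow. SIK3 and SIK2, at 14.95 and 12.99, lay within the quartiles of their class (8.03 and 18.90) and above its median. CRTC3, at 3.65, lay below the lower quartile of promoters with TGACG alone, 6.58. EP300, at 5.24, lay inside the quartiles of promoters without a match (5.04 and 10.08). The summits of CRTC3 and EP300 lay outside the promoter window, so the sequence under them was not searched for CRE letters. The members' promoters were rich in G and C, from 70.3% at the outer CREBBP start to 82.3% at SIK1, against a median of 62.3% over protein-coding promoters and 58.7% over all RefSeq promoters. Their observed-to-expected CpG ratio was 0.884 to 1.18, against medians of 0.738 and 0.579. Words that contain CG vary with base composition, and its part in these counts was not tested.

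**Figure D4:**
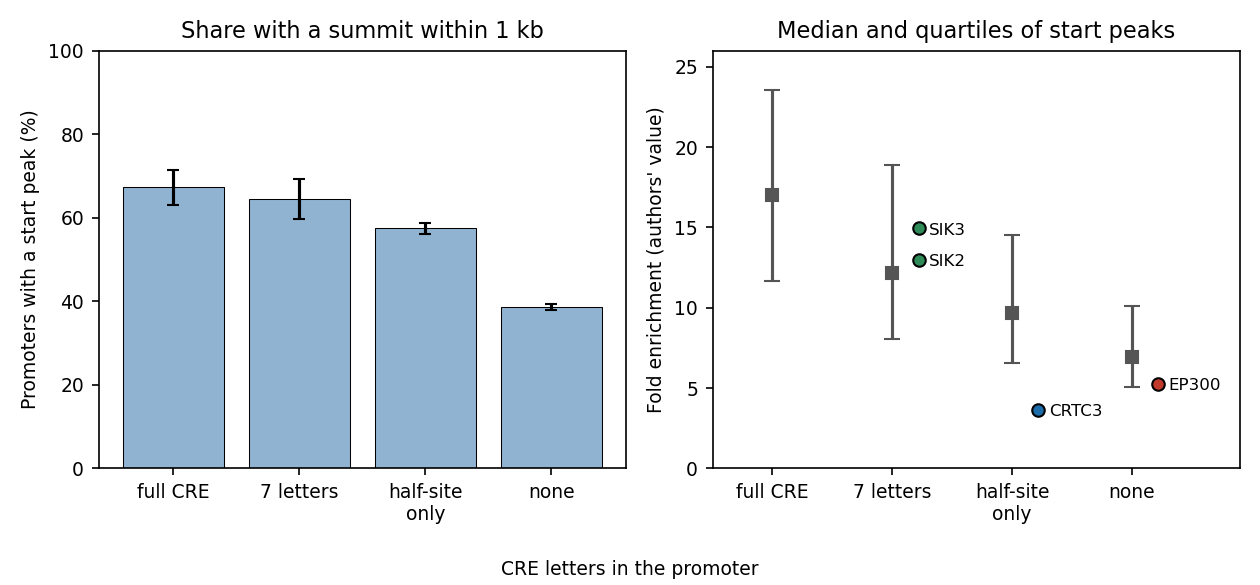
Left, share of protein-coding promoters with a summit within 1 kb of the start by the CRE letters they hold, with exact 95% binomial intervals; right, median and quartiles of the authors' fold enrichment of those peaks, with the 4 members that have a start peak as labelled dots. SIK2 and SIK3 fall between the quartiles of promoters with 7 CRE letters, and CRTC3 below those of promoters with the 5 letters alone. The summits of CRTC3 and EP300 lay outside the window searched for letters. The binomial intervals treat each promoter as independent.

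The genes around the members in the same pathway were counted in 10 lists, of which 49 of 63 genes had a gene-end peak (77.8%, interval 65.5 to 87.3%). The fold values given for a list are those of the peaks named for its genes, which need not be the peaks at a gene end. All 3 CREB factors had one, and their peaks, CREM at 16.05-fold, CREB1 at 15.48-fold and ATF1 at 11.57-fold, were of the size of those at SIK3 and SIK2. Of PKA subunits, whose kinase inhibits the SIKs, 4 of 6 had one, and the named peaks ran from 20.15-fold at PRKAR1A, 44173 bp from the nearest RefSeq end, through PRKACB (10.48) and PRKACA (7.06) to PRKAR1B (3.20), with the peaks named for PRKACA and PRKAR1B also over 1 kb from an end.

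Of the LKB1 complex, which activates SIKs, and the AMPK catalytic subunits, 6 of 7 had a gene-end peak. The named peaks ran from CAB39 (13.38-fold), PRKAA1 (12.95) and STK11, which encodes LKB1 (10.77), to STRADB (5.65), whose peak lay 6641 bp from the nearest end and was not counted. Of 14-3-3 genes, 6 of 7 had one. The named peaks ran from YWHAQ (19.72), YWHAZ (11.75) and SFN (11.51) to YWHAB (5.77), and that of YWHAZ, 1250 bp from an end, was not counted. All 4 calcineurin genes had one, at 7.29-fold for PPP3CC and 4.35-fold for PPP3CB. PRKAA2, YWHAH, PPP3CA and PPP3R1 were not named, but each had a summit within 210 bp of an end, in peaks assigned to LOC101929935 (3.82-fold), C22orf24 (5.60), FLJ20021 (7.41) and LOC107985892 (14.39).

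Class IIa histone deacetylases, which SIKs phosphorylate as they do CRTCs, had a gene-end peak at 1 of 4, with HDAC5 (6.97), HDAC4 (6.94) and HDAC7 (6.43) 1035 to 1971 bp from an end and HDAC9, the one counted, lowest at 3.74. With a window of 5 kb all 4 were counted. Further CRTC regulators and a fusion partner had one at 4 of 4. SIRT1 had 8.18-fold, MARK2 3.54-fold and COP1, listed under its older name RFWD2, 5.46-fold. MAML2, a fusion partner of CRTC1 in tumours, had 6.76-fold, with 30 tags and a score of 51.12, where the table's lowest score is 50. Other acetyltransferase genes had one at 9 of 10, and KAT8 (25.27), KAT5 (25.23) and KAT7 (16.95) exceeded both EP300 and CREBBP, while NCOA1 had 3.29-fold. Partners of CBP and p300 had one at 6 of 9, among them peaks of 6.90-fold named for HIF1A and 6.6-fold for CITED4, with RELA lowest at 3.65. CREB targets had one at 6 of 9. Their named peaks were highest at NR4A2 (21.80), DUSP1 (14.99) and FOS (13.22) and lowest at NR4A3 (3.35), where the named peak lay 3045 bp from the nearest end. Some of the peaks named for list genes held few tags, as at STRADB (21), PRKACA (34) and HDAC7 (38), which fold enrichment does not show. The lists are small and their genes were chosen with earlier results of these data known, so nothing is read from the difference between a list and all genes.

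**Figure D5:**
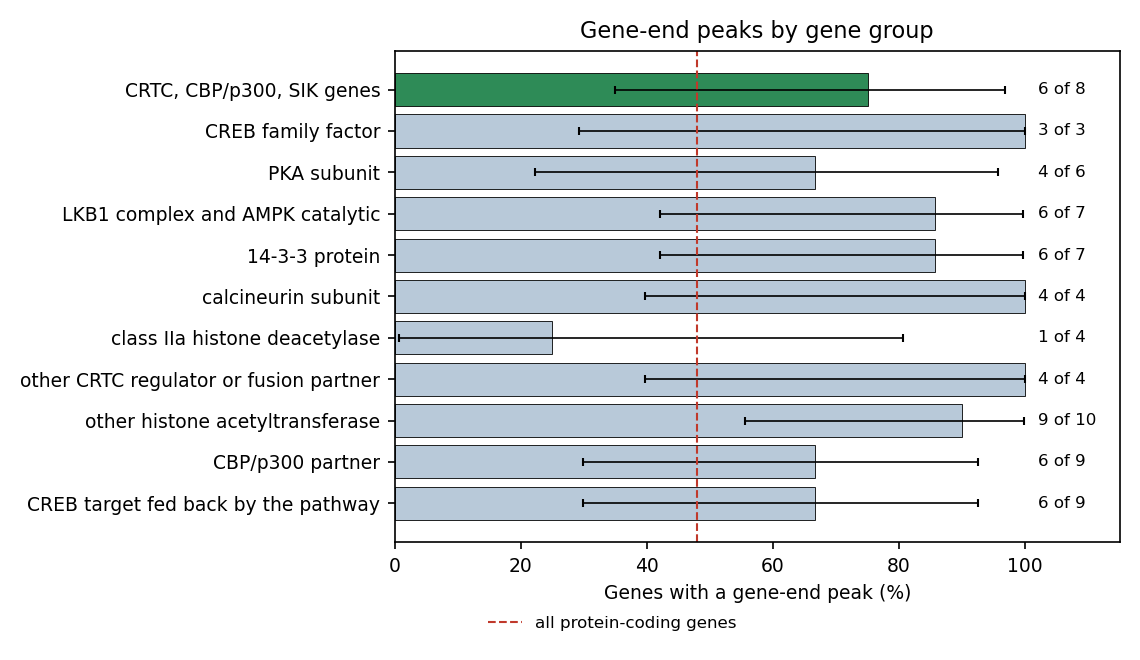
Percentage of genes with a gene-end peak (x axis) for the 8 coactivator and kinase genes and 10 pathway lists (y axis), with exact 95% binomial intervals, counts at the right and the 48.0% of all protein-coding genes as a dashed line. The 8 genes stand at 6 of 8, class IIa histone deacetylases lowest at 1 of 4, and the intervals of 10 of the 11 groups cross the dashed line.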

How the data were processed

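1 ChIP library and 1 input library of HCT116 were described, and only the ChIP library's peak list entered. The submitters' processing notes name CASAVA, Bowtie2, bedtools and hg38. The sources used here do not name the peak caller, its settings or its control. Tags are raw read counts in whole numbers, per the file headers. Fold enrichment, as deposited, is a ratio to an unspecified background (lowest value 3), and the deposited score has an unstated basis (lowest value 50). Library depth is unknown, so no depth-based limit can be given for a gene without a peak. Another 1 line without a position was left out.

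Gene ends came from the RefSeq gene table and starts, strands and sequences from the RefSeq promoter table, both GRCh38.p14, the assembly of hg38. Of the 8 members, 7 matched a promoter, and CREBBP has 2. Tag intervals are exact Poisson and shares exact Clopper-Pearson, at 95%, and both cover counting error only. Window and motif steps were tested on simulated data. The rule for named genes took all members, genes sharing their peaks, and in each list the 3 highest and the lowest fold enrichment and the genes not named. The second SIK1 copy and the genes whose peaks lie nearest to SIK1 or to unnamed list genes were added after the values were seen. A further gene that the rule names is not reported here. The members and lists were chosen with earlier results of these data known. Python 3.11.15, numpy 2.4.6, pandas 2.3.3, scipy 1.17.1 and matplotlib 3.10.9 were used.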

Additional observations from a re-analysis of the deposited data

How the results depend on the processing

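With only the peaks above the table's median fold enrichment, 4 of the 8 genes were named (28.9% in the background), 3 had a gene-end peak (27.8%) and 2 a start peak (29.9%), and 27 of the 63 pathway genes had a gene-end peak, because that setting drops peaks. Gene-end peaks at 6 of 8 became 4 with a 500 bp window (41.3%) or with peaks of at least 5-fold (38.5%), and 5 when only the peak assigned to the gene was counted (35.9%). Over the 5 members whose own peak is at a gene end, the medians were 374 tags, a score of 268.28 and 1914 bp, against 334 tags, 261.80 and 1901 bp over 7; fold enrichment was 7.84 in both. As density, the members' median was 152 tags per kb, against 88.2 over all peaks. TGACGNNA was in 1 of 7 promoters (7.55% of all), and TGACGTC in 3, a motif chosen after seeing the data, against 0 for TGACGTCA. Of the 25 alternatives for the main results, 15 kept their value within the limits set. Those limits counted as kept the falls in gene-end peaks from 6 to 4. They also kept the fall in start peaks from 4 to 3 with a 500 bp window (46.8%). The 15 are therefore not a measure of stability. No paired analysis was possible because each group has 1 library and the input has no table here.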
